A study of Drosophila melanogaster with 10 samples.

Results

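The interaction of Delta overexpression and COX7a knockdown is the amount by which a gene's level, with both manipulations together, departs from the sum of what each does alone. It was measured on 8 of the 10 arrays of the series, those of the 4 genotypes that form a factorial design, with 2 arrays per genotype. The arrays were chosen by their titles, and no measured value entered that choice. The quantity is (Delta with COX7a RNAi minus Delta) minus (COX7a RNAi minus GFP) in log2 units. A value of 0 means that the effects add up on the log2 scale, and a positive value means a level above that sum.

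The samples were larval eye-antenna discs of Drosophila melanogaster, epithelial sacs from which the eye, the antenna and most of the head capsule of the fly arise, collected 96 h after egg laying. The driver ey-Gal4 expressed the transgenes in the part of the disc where the eyeless enhancer is active, so transcripts of disc cells without driver activity are in every value. The Delta with COX7a RNAi discs carried ey-Gal4 and UAS-Delta over UAS-COX7a-RNAi, hairpin line v106661, and the Delta discs carried ey-Gal4 and UAS-Delta over UAS-GFP. The COX7a RNAi discs carried ey-Gal4 over the same hairpin line, and the GFP discs carried ey-Gal4 over UAS-GFP. Every genotype thus carries the driver. Both Delta genotypes carry 2 UAS transgenes and the others carry 1. The knockdown rests on 1 hairpin line, and each array holds a pool of 20 discs or more. The remaining 2 arrays, of discs that express an intracellular Notch (UAS-Notch[intra2], here Notch intra), entered the fit for its estimate of the spread. The genotypes come from crosses of different lines, and an effect of a transgene cannot be told apart here from a difference between the lines that carry it.

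Delta is a membrane-bound ligand of the receptor Notch. Binding to a neighbouring cell releases the intracellular domain of Notch, which acts in the nucleus with Su(H) and switches on targets such as the Enhancer of split genes, and in the eye disc this signal drives growth. COX7a belongs to complex IV, the cytochrome c oxidase of mitochondria, which passes electrons to oxygen at the end of the respiratory chain. Loss of respiratory chain function is known in flies and mammals to raise genes of the ATF4 stress response, among them aminoacyl-tRNA synthetases and amino acid transporters.

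Of 11982 genes named by the probe annotation, 8702 passed a filter on dim signal and were tested. The floor of that filter was 4.66 log2 units. Replicate arrays of a genotype correlated at 0.9953 to 0.9966 across genes, and arrays of different genotypes of the factorial design at 0.9901 to 0.9955. Markers of the disc epithelium lay above the floor on all 8 arrays for 9 of 9 measured genes. Listed markers of other tissues did so too, with 6 of 7 for glia, 8 of 10 for muscle and 4 of 5 for trachea. The counts were 5 of 9 for hemocytes, 4 of 6 for fat body, 4 of 6 for neurons and 4 of 8 for ring gland. They were 4 of 9 for salivary gland and 3 of 7 for optic lobe and brain neuroblasts. The GFP arrays differed from each other in ring gland genes. On the first, spok, an ecdysone synthesis gene of the prothoracic gland, was at 3.83, against 9.35 on the second GFP array and 7.58 to 9.48 on the 6 arrays of the other genotypes. For jhamt, a juvenile hormone synthesis gene, the second GFP array stood apart instead, at 7.92 against 3.85 on the first and 3.68 to 4.93 on those 6. The summed level of the 8 ring gland markers was 46.5 and 48.6 in Delta with COX7a RNAi discs, 49.0 and 50.0 in Delta discs, 55.7 and 53.3 in COX7a RNAi discs, and 39.2 and 56.1 in GFP discs. The first Delta array had the highest sum of the 10 measured muscle markers (87.8, against 80.3 on the second Delta array and 78.2 to 82.9 on the others). In pooled discs, fewer cells of a type and less RNA per cell cannot be told apart.

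The target of the hairpin and the ligand came first. COX7A, as the annotation spells the gene, was at 10.88 and 11.20 in Delta with COX7a RNAi discs, 13.21 and 13.29 in Delta discs, 10.50 and 10.54 in COX7a RNAi discs, and 13.41 and 13.32 in GFP discs. The groups with and without the hairpin did not overlap. COX7A changed with the hairpin by -2.21 in the Delta background and by -2.85 in the GFP background, and its interaction was 0.63 ± 0.13 (SE, 95% interval 0.34 to 0.92, limma adjusted p = 0.0878), which did not pass the test. The interaction was 0.79 without the first Delta with COX7a RNAi array and 0.47 without the second. The residual COX7A level was higher in Delta with COX7a RNAi discs than in COX7a RNAi discs, by 0.52 (adjusted p = 0.0422). The Delta gene was at 13.26 and 12.72 in Delta with COX7a RNAi discs and 13.06 and 13.22 in Delta discs, against 11.10 and 11.23 in COX7a RNAi discs and 11.20 and 11.16 in GFP discs. Its interaction was -0.14 ± 0.21 (interval -0.62 to 0.35, adjusted p = 0.906), so no departure was detectable for the Delta mRNA within that interval. A second Delta probe set gave -0.12.

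Across the 8702 genes, 50 were called for the interaction at a Benjamini-Hochberg adjusted p under 0.05, which is 0.575%. Of these, 23 were higher than the sum of the separate effects (0.264%) and 27 were lower (0.31%). At an unadjusted p under 0.05 there were 917. Sizes among the called genes ran from 0.36 to 7.15 log2 units, with 33 of at least 2-fold and 9 of at least 4-fold, and the median interaction of all tested genes was -0.01. The median SE was 0.118, so small departures were not detectable for most genes. The sign of the interaction held for each of the 50 when any 1 of the 10 arrays was left out, and 14 were called in each of those 10 fits. Leaving out the first GFP array left 16 calls, all of them among the 50, and leaving out the second left 27. Leaving out the first or second Delta array left 24 or 32, and leaving out the first Delta with COX7a RNAi array left 32.

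The effects of the hairpin in both backgrounds share no array and can be set side by side. COX7a RNAi called 326 genes in Delta discs (3.75%, with 2.18% higher and 1.56% lower) and 394 in GFP discs (4.53%, with 3.05% higher and 1.48% lower), and 138 genes were in both lists, 42.3% of the first and 35% of the second. Of these 138, 135 moved in the same direction. The 3 in opposite directions were CG6701, CtsL2 and tut. Each was called for the interaction, which is the difference of the same hairpin effects and so no separate evidence. Over the 8702 genes the effects correlated at Pearson's r of 0.449 and Spearman's rho of 0.295, a description across genes, which are not independent. Of the 50 genes called for the interaction, 20 had a called hairpin effect in Delta discs alone, 23 in GFP discs alone and 7 in both. The counts rest in part on single arrays: the first was 104 and 136 without the first or second Delta array, and the second was 127 and 158 without the first or second GFP array. The mirror comparison, Delta against no Delta, called 78 genes in COX7a RNAi discs (0.896%) and 207 in GFP discs (2.38%, with 1.34% higher and 1.03% lower), with 26 in both, each in the same direction. The 207 were 74 and 80 without the first or second GFP array and 90 and 110 without the first or second Delta array. The 78 were 41 without the first COX7a RNAi array, 43 without the second Delta with COX7a RNAi array and 51 without either Delta array.

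The called genes were sorted, after their values had been seen, by which genotype stood apart. A genotype was taken to stand apart where the means of the other 3 lay within less than 0.5 of its distance from them, and a gene with no such genotype was called graded. GFP discs stood apart in 17 of the 50 genes, Delta discs in 12, Delta with COX7a RNAi discs in 5 and COX7a RNAi discs in 4, and 12 were graded. Without the first GFP array, 46 of the 50 kept their class.

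**Figure D1:**
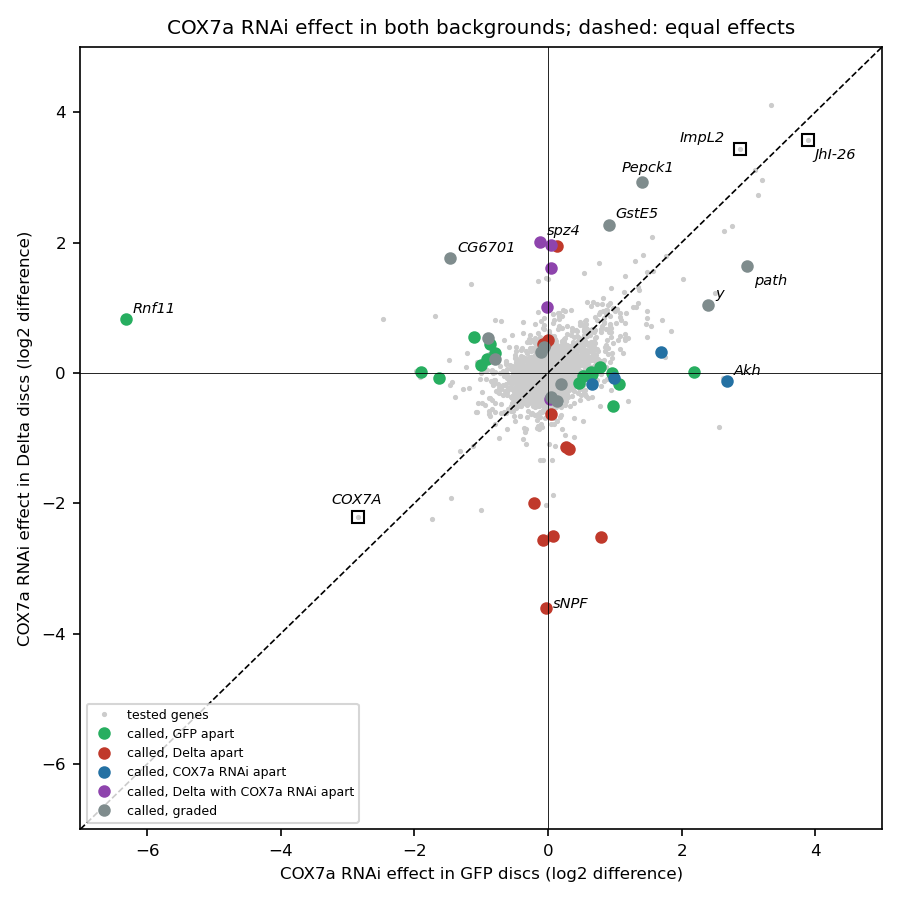
The COX7a RNAi effect in Delta discs (vertical axis, log2 difference) is plotted against the effect in GFP discs (horizontal axis, log2 difference), 1 point per tested gene. Genes called for the interaction are coloured by the genotype whose level stood apart, squares mark 3 genes of the COX7a response, and the dashed line marks equal effects. Rnf11 lies at -6.33 on the horizontal axis and sNPF at -3.61 on the vertical one, while ImpL2 lies near the line.

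**Figure D2:**
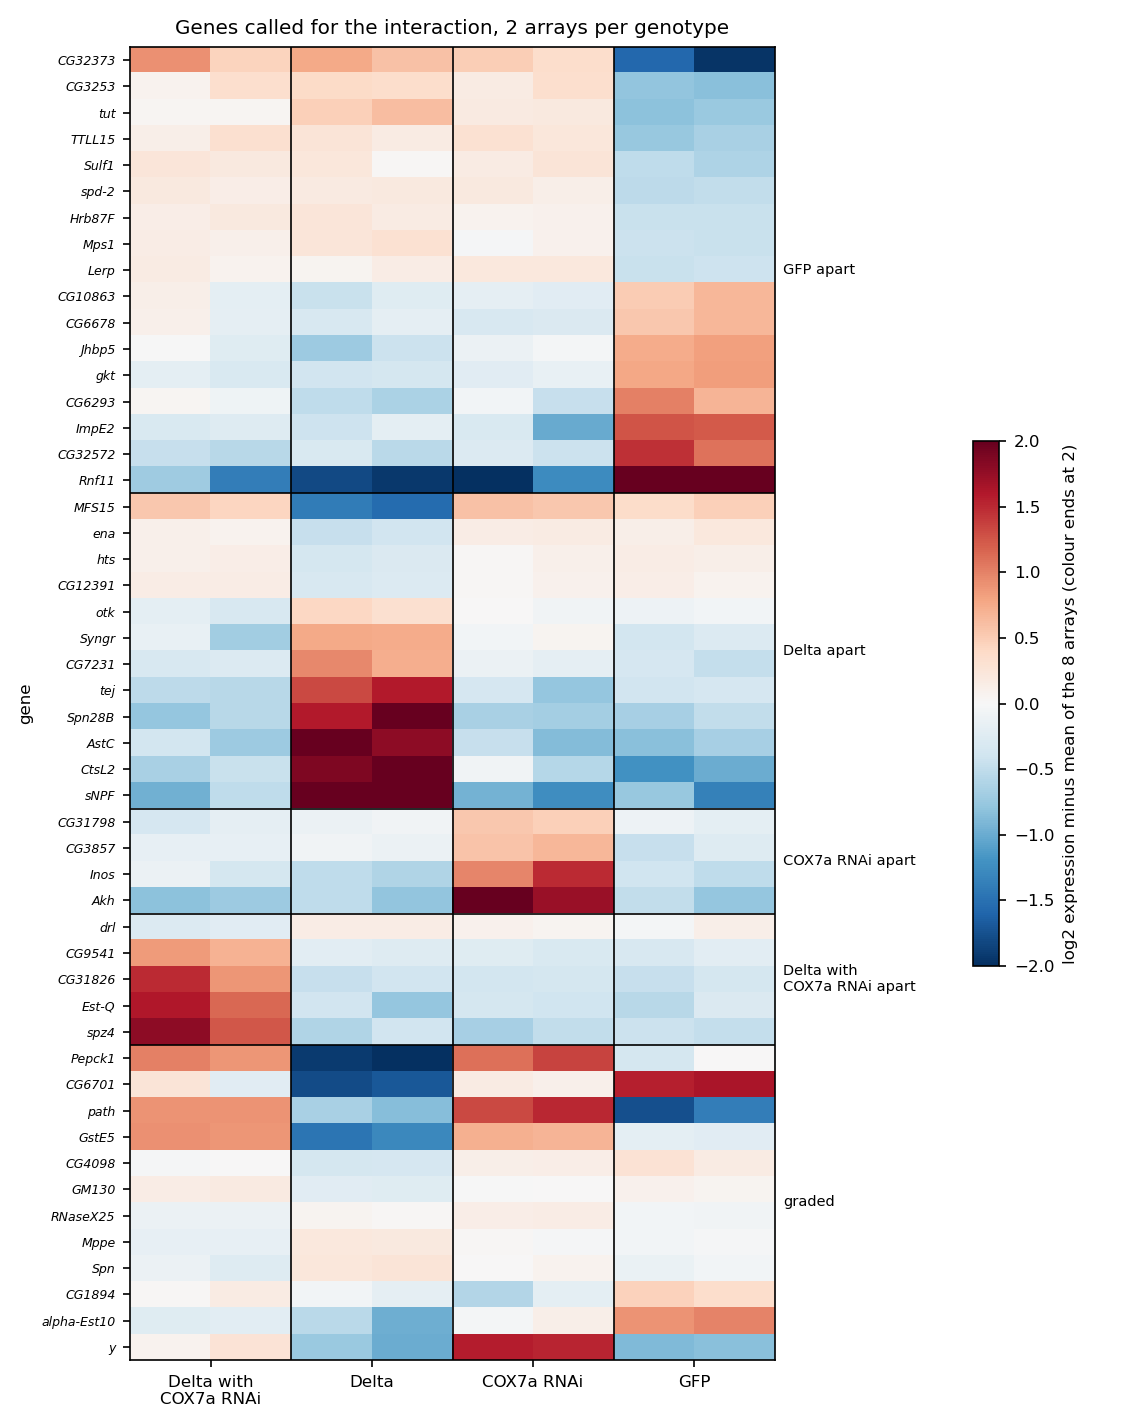
Each row is 1 of the 50 genes called for the interaction and each column 1 array, with Delta with COX7a RNAi, Delta, COX7a RNAi and GFP discs from left to right. Colour is the log2 level minus the gene's mean over the 8 arrays, and the colour scale ends at 2. Black lines part the classes by the genotype that stood apart, and the paired columns of a genotype have like colours in most rows.

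Delta with COX7a RNAi discs stood apart in spz4, Est-Q, CG31826, CG9541 and drl, genes in which neither manipulation alone was called against GFP discs. The sorting rule, which puts the other 3 means close together, favours such an outcome. spz4, which encodes a protein of the Spatzle family of Toll-type receptor ligands, was at 8.50 and 7.94 in Delta with COX7a RNAi discs, 6.11 and 6.32 in Delta discs, 6.05 and 6.21 in COX7a RNAi discs, and 6.27 and 6.23 in GFP discs. Both arrays of the combined genotype lay above the other 6, and the interaction was 2.13 ± 0.24 (adjusted p = 0.00871). Est-Q, an esterase gene, was at 5.63 and 5.18 in Delta with COX7a RNAi discs and under the floor elsewhere, at 3.64 and 3.26 in Delta discs, 3.67 and 3.62 in COX7a RNAi discs, and 3.46 and 3.73 in GFP discs. Its interaction was 1.90 ± 0.26 (adjusted p = 0.0201), or 0.75 with values under the floor raised to the floor. With several genotypes under the floor, such a value is not a bound. CG31826 behaved alike, with 6.05 and 5.45 in Delta with COX7a RNAi discs. Its means were 4.14 in Delta, 4.20 in COX7a RNAi and 4.16 in GFP discs, all 3 under the floor (interaction 1.56, or 1.09 with the floor). CG9541 was at 5.57 and 5.41 in Delta with COX7a RNAi discs and 4.50 and 4.46 in Delta discs. It was at 4.47 and 4.42 in COX7a RNAi discs and 4.40 and 4.51 in GFP discs. These values were likewise under the floor outside the combined genotype (interaction 1.02, or 0.83 with the floor). Est-Q, CG31826 and CG9541 were above the floor in 1 genotype only and passed the filter through it, so their calls do not support a pattern of this class. The lone decrease was drl, which encodes a Ryk-family receptor for Wnt5, at 12.12 and 12.15 in Delta with COX7a RNAi discs against means of 12.54 in Delta, 12.45 in COX7a RNAi and 12.42 in GFP discs (interaction -0.43, adjusted p = 0.0407). None of these 5 calls held without the first GFP array, although each kept its sign. The adjusted p of spz4 was then 0.0578 and its interaction 2.11. The other 4 calls were lost in 6 to 9 of the 10 fits with 1 array omitted.

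Delta discs stood apart in 12 genes, 8 of them high and 4 low. All 12 were called for Delta alone against GFP discs, and all 12 moved back towards the GFP level in Delta with COX7a RNAi discs. The sorting rule largely fixes both counts, since it puts the other 3 means close together and apart from the Delta mean. Neither count is a separate result about the 12 genes. COX7a RNAi alone was called against GFP discs in 1 of them, CtsL2. The largest was sNPF, which encodes the short neuropeptide F precursor, a regulator of feeding. It was at 4.30 and 4.75 in Delta with COX7a RNAi discs, 7.84 and 8.43 in Delta discs, 4.32 and 4.01 in COX7a RNAi discs, and 4.49 and 3.91 in GFP discs. Both Delta arrays stood far above the other 6, which lay near the floor. Its interaction was -3.57 ± 0.37 (adjusted p = 0.00657), or -3.43 with values under the floor raised to it. AstC, the gene for the neuropeptide allatostatin C, had the same pattern, with 4.45 and 4.09 in Delta with COX7a RNAi discs, 6.94 and 6.60 in Delta discs, 4.37 and 3.95 in COX7a RNAi discs, and 3.99 and 4.16 in GFP discs. Its interaction was -2.58 ± 0.25 (adjusted p = 0.00505), or -2.11 with the floor. AstC and Spn28B, below, were above the floor in Delta discs only and passed the filter through them. Outside Delta discs sNPF had 1 array above the floor, at 4.75 in Delta with COX7a RNAi discs. It too passed only through Delta discs, so the calls of sNPF, AstC and Spn28B do not support a pattern of this class. On the Notch intra arrays sNPF was at 3.44 and 3.13 and AstC at 3.96 and 3.95, under the floor, so the high level of both peptide genes was seen in 1 of the 5 genotypes.

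The other genes high in Delta discs were of mixed kinds. CtsL2, a cathepsin L family gene by its name, was at 5.19 and 5.38 in Delta with COX7a RNAi discs, 7.70 and 7.90 in Delta discs, 5.76 and 5.27 in COX7a RNAi discs, and 4.62 and 4.84 in GFP discs (interaction -3.31 ± 0.24, adjusted p = 0.0013). It fell by 2.52 with the hairpin in Delta discs and rose by 0.79 with it in GFP discs (adjusted p = 0.0365), and it was also high on the Notch intra arrays, at 7.40 and 7.47. Spn28B, a serpin gene, was at 3.58 and 3.81 in Delta with COX7a RNAi discs and 5.93 and 6.58 in Delta discs. Its means were under the floor in COX7a RNAi (3.70) and GFP discs (3.77), and its interaction was -2.49, or -1.60 with the floor. tej, which encodes a Tudor-domain protein of the germline piRNA pathway, was at 5.26 and 5.23 in Delta with COX7a RNAi discs, 7.12 and 7.38 in Delta discs, 5.45 and 5.02 in COX7a RNAi discs, and 5.42 and 5.46 in GFP discs (interaction -1.80). Syngr, the gene for the synaptic vesicle protein synaptogyrin, gave -1.49, CG7231 gave -1.41, and otk, which encodes a transmembrane protein related to vertebrate PTK7, gave -0.68. The neuron markers, given because sNPF and AstC are neuropeptide genes, had a summed level over 6 measured genes of 36.1 and 35.7 in Delta with COX7a RNAi discs, 36.7 and 36.3 in Delta discs, 35.8 and 37.3 in COX7a RNAi discs, and 35.9 and 35.7 in GFP discs. Of the 6, elav, brp, futsch and nSyb lay above the floor on all 8 arrays and fne under it. The part of neurons in the values of sNPF and AstC was not tested.

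Of the 4 genes low in Delta discs, MFS15, a transporter gene of the major facilitator superfamily, departed most. It was at 7.47 and 7.36 in Delta with COX7a RNAi discs, 5.53 and 5.39 in Delta discs, 7.51 and 7.46 in COX7a RNAi discs, and 7.29 and 7.40 in GFP discs. The 6 arrays of the other genotypes lay within a narrow band and both Delta arrays below it, with an interaction of 1.81 ± 0.12 (adjusted p = 0.00107). Smaller departures were found for ena, which encodes the actin regulator Enabled (0.51), hts, which encodes an adducin-like protein of the membrane skeleton (0.51), and CG12391 (0.50). The replicates of ena were 10.53 and 10.50 in Delta with COX7a RNAi discs, 9.96 and 10.05 in Delta discs, 10.57 and 10.59 in COX7a RNAi discs, and 10.54 and 10.64 in GFP discs. The calls of sNPF, AstC, CtsL2, CG7231 and MFS15 held in each of the 10 fits without an array. That of tej was lost without the first GFP array (-1.77, adjusted p = 0.0586), and CG12391 and hts were lost in 2 and 3 fits (adjusted p up to 0.0938 and 0.0928). Spn28B, otk, ena and Syngr were lost in 7 or 8 of the 10. The part of the high muscle markers on the first Delta array in these values was not tested.

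GFP discs stood apart in 17 genes, where the means with both together, Delta alone and COX7a RNAi alone lay closer to each other than to the GFP mean. They were not equal in each gene: tut differed by -0.51 (adjusted p = 0.0348) between Delta with COX7a RNAi discs and Delta discs. Delta alone and COX7a RNAi alone were called against GFP discs in all 17, and both of these comparisons use the same 2 GFP arrays. The sorting rule sets the GFP mean apart from the other 3, so it largely fixes this count, which is no separate result. Rnf11, which encodes a RING finger protein, was at 6.79 and 6.11 in Delta with COX7a RNAi discs, 5.70 and 5.56 in Delta discs, 5.34 and 6.23 in COX7a RNAi discs, and 12.07 and 12.16 in GFP discs. Its interaction of 7.15 ± 0.66 (adjusted p = 0.00413) was the largest of the 50. The level that additivity would require with both transgenes was -0.70, which lies under the lowest value on any of the 8 arrays, 2.58. A second Rnf11 probe set gave 5.34. For 9 of the 50 genes, Rnf11 among them, the additive level was at or under the floor. On the Notch intra arrays, whose discs carry neither Delta nor the hairpin, Rnf11 was at 7.31 and 5.82. In 15 of the 17 genes the Notch intra mean lay nearer the other 3 genotypes than GFP, and the like held for the genotype that stood apart in 5 of 5, 9 of 12 and 3 of 4 genes of the other classes.

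There were 7 further genes high in GFP discs. ImpE2, an ecdysone-inducible gene first found in imaginal discs, was at 6.38 and 6.43 in Delta with COX7a RNAi discs, 6.28 and 6.50 in Delta discs, 6.39 and 5.67 in COX7a RNAi discs, and 7.95 and 7.91 in GFP discs (interaction 1.92 ± 0.31, adjusted p = 0.0407). gkt, the fly gene for tyrosyl-DNA phosphodiesterase, a DNA repair enzyme, was at 8.94 and 8.82 in Delta with COX7a RNAi discs, 8.74 and 8.77 in Delta discs, 8.90 and 8.97 in COX7a RNAi discs, and 9.91 and 9.96 in GFP discs. Its interaction was 1.12 ± 0.09 (adjusted p = 0.00317), another gkt probe set gave 1.44, and a dim one under the floor gave 0.14. CG6293 (1.66), CG32572 (1.54), Jhbp5 (1.31), CG6678 (1.12) and CG10863 (1.11) completed the set. Among these 4 genotypes CG32572 had means under the floor outside GFP discs (1.48 with values under the floor raised to it). Outside GFP discs it was above the floor on 1 array, of Notch intra at 4.72. It passed the filter only through GFP discs, so its call does not support a pattern of this class.

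The other 9 genes were low in GFP discs. CG32373 was at 9.10 and 8.64 in Delta with COX7a RNAi discs, 8.94 and 8.76 in Delta discs, 8.68 and 8.54 in COX7a RNAi discs, and 6.61 and 6.23 in GFP discs (interaction -2.17 ± 0.24, adjusted p = 0.00871). tut, which encodes an RNA-binding protein known from the male germline, was at 5.02 on both Delta with COX7a RNAi arrays, 5.46 and 5.59 in Delta discs, 5.16 and 5.17 in COX7a RNAi discs, and 4.16 and 4.23 in GFP discs, the last under the floor (interaction -1.48, or -1.02 as a bound with the floor). spd-2, which encodes a centrosome assembly protein, was at 11.00 and 10.94 in Delta with COX7a RNAi discs, 10.98 and 11.00 in Delta discs, 11.00 and 10.92 in COX7a RNAi discs, and 10.28 and 10.32 in GFP discs. The 6 arrays outside GFP thus spanned a range far smaller than their distance from the GFP arrays, and the interaction was -0.67 ± 0.06 (adjusted p = 0.00413). CG3253 gave -1.23 and TTLL15, a tubulin tyrosine ligase-like gene, gave -0.97. Sulf1, which encodes a heparan sulfate sulfatase, gave -0.68, the spindle checkpoint kinase gene Mps1 gave -0.63, the lysosomal enzyme receptor gene Lerp gave -0.62, and Hrb87F, which encodes an hnRNP protein, gave -0.57. Rnf11, gkt, CG32373, tut, spd-2 and Hrb87F were called in each of the 10 fits with 1 array omitted. Jhbp5 was lost without either GFP array (adjusted p of 0.065 and 0.073), TTLL15 was lost in 2 fits, CG3253 and CG6293 in 4, and the remaining 7 in 5 to 10. The GFP arrays, which differ in ring gland genes such as spok, lay close together for Rnf11, gkt and spd-2. They lay further apart for CG32373, CG32572 and CG6293. The median absolute difference between them was 0.098 over the genes called for the interaction and 0.062 over all tested genes. The like values were 0.125 and 0.076 for the Delta arrays and 0.118 and 0.099 for the Delta with COX7a RNAi arrays. They were 0.070 and 0.097 for the COX7a RNAi arrays. The part of the difference between the GFP arrays in the calls was not tested.

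COX7a RNAi discs stood apart in Akh, Inos, CG3857 and CG31798, which were high there and not in Delta with COX7a RNAi discs. Akh, the gene for adipokinetic hormone, which the corpora cardiaca of the ring gland make, was at 5.46 and 5.56 in Delta with COX7a RNAi discs, 5.77 and 5.50 in Delta discs, 8.66 and 8.01 in COX7a RNAi discs, and 5.79 and 5.52 in GFP discs. Its interaction was -2.81 ± 0.42 (adjusted p = 0.0311), and the call was lost in 7 of the 10 fits (adjusted p up to 0.132). It was also high on the Notch intra arrays, at 9.86 and 8.94. Akh was the sole call for the interaction among the 8 ring gland markers, but most of the uncalled ones were negative too. The interaction was -3.40 for spok (limma adjusted p = 0.645), -1.64 for phtm, -0.99 for sad and -0.82 for nvd. It was -0.51 for tor and -0.32 for dib, and jhamt went the other way, at 1.68. Among these markers spok was at 7.58 and 8.20 in Delta with COX7a RNAi discs, 8.41 and 9.06 in Delta discs, 9.48 and 8.82 in COX7a RNAi discs, and 3.83 and 9.35 in GFP discs, with 10.34 and 8.61 on the Notch intra arrays. The part of ring gland tissue in the Akh values was not tested. Inos, which encodes the enzyme that makes inositol phosphate from glucose 6-phosphate, was at 7.62 and 7.39 in Delta with COX7a RNAi discs, 7.23 and 7.14 in Delta discs, 8.72 and 9.22 in COX7a RNAi discs, and 7.33 and 7.23 in GFP discs (interaction -1.37). Its call was lost in 8 fits. CG3857 was at 8.56 and 8.57 in Delta with COX7a RNAi discs, 8.67 and 8.62 in Delta discs, 9.31 and 9.40 in COX7a RNAi discs, and 8.27 and 8.48 in GFP discs. Its interaction of -1.06 ± 0.11 (adjusted p = 0.00698) was called in each of the 10 fits, and a second probe set gave -0.58.

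The graded genes included metabolic ones. Pepck1, which encodes phosphoenolpyruvate carboxykinase, the committing enzyme of gluconeogenesis, was at 12.11 and 12.00 in Delta with COX7a RNAi discs, 9.20 and 9.04 in Delta discs, 12.22 and 12.46 in COX7a RNAi discs, and 10.76 and 11.11 in GFP discs. It rose with the hairpin by 2.94 in Delta discs and by 1.40 in GFP discs, to like levels in both, and changed with Delta alone by -1.82. The interaction was 1.53 ± 0.19 (adjusted p = 0.0127), lost without the second Delta array (1.46, adjusted p = 0.0565) and without the first Delta with COX7a RNAi array (1.48, adjusted p = 0.0555). GstE5, a glutathione S-transferase gene of detoxification, followed it, at 8.48 and 8.43 in Delta with COX7a RNAi discs, 6.09 and 6.27 in Delta discs, 8.27 and 8.23 in COX7a RNAi discs, and 7.36 and 7.32 in GFP discs (interaction 1.36 ± 0.12, adjusted p = 0.00317). Both genes had their lowest level in Delta discs and nearly the same level in both genotypes with the hairpin.

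path went the other way. It encodes an amino acid transporter of the SLC36 family and was at 11.85 and 11.86 in Delta with COX7a RNAi discs, 10.31 and 10.11 in Delta discs, 12.28 and 12.46 in COX7a RNAi discs, and 9.20 and 9.58 in GFP discs. The hairpin raised it by 1.65 in Delta discs and by 2.98 in GFP discs, an interaction of -1.34 ± 0.17 (adjusted p = 0.016). The call was lost without the first Delta array or either Delta with COX7a RNAi array (adjusted p up to 0.069). The pigmentation gene y was at 5.77 and 5.97 in Delta with COX7a RNAi discs, 4.95 and 4.70 in Delta discs, 7.27 and 7.21 in COX7a RNAi discs, and 4.82 and 4.86 in GFP discs (interaction -1.35 ± 0.15, adjusted p = 0.00905, and 0.0586 without the first GFP array). The level of y was higher in discs with the hairpin line in both backgrounds, by 1.05 in Delta discs and by 2.40 in GFP discs. For y, the knockdown and other features of the line that carries the hairpin cannot be told apart here. CG6701 had hairpin effects of opposite sign, 1.76 in Delta discs and -1.46 in GFP discs. It was at 8.12 and 7.62 in Delta with COX7a RNAi discs, 6.06 and 6.16 in Delta discs, 8.02 and 7.96 in COX7a RNAi discs, and 9.42 and 9.48 in GFP discs, with an interaction of 3.22 ± 0.20 (adjusted p = 0.00107). The esterase gene alpha-Est10 gave 1.44 and was lost in 5 fits. The remaining 6 graded genes, CG1894, GM130, CG4098, RNaseX25, Mppe and Spn, had interactions of -0.56 to 1.01, and each was lost in 8 or more of the 10 fits.

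**Figure D3:**
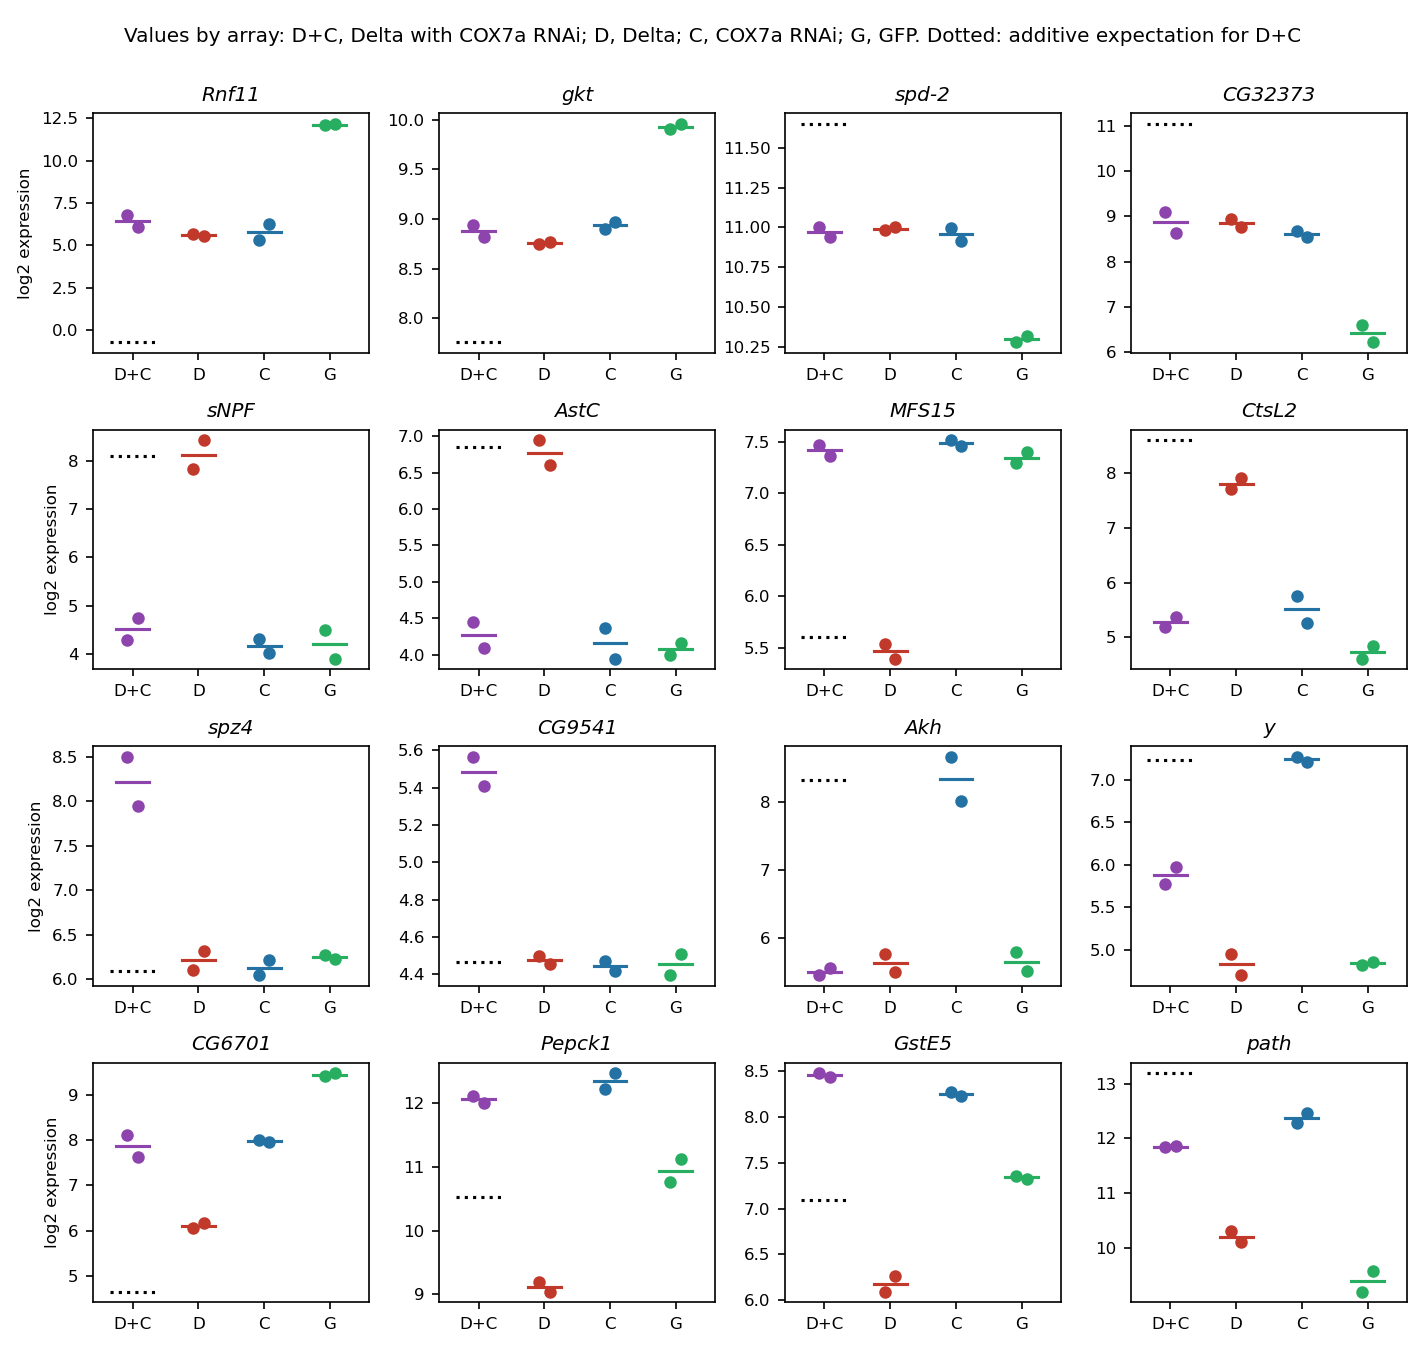
Log2 level on each array is shown for 16 of the called genes, with Delta with COX7a RNAi (D+C), Delta (D), COX7a RNAi (C) and GFP (G) discs from left to right, points for arrays and a bar for the mean of 2. The dotted line is the level expected with both transgenes if the effects added up, and its gap to the D+C bar is the interaction. In the top row GFP discs stand apart, in the second row Delta discs, and Pepck1 and GstE5 in the bottom row lie at like levels with the hairpin in either background.

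The genes of each class were counted by chromosome. Chromosome arms come from a RefSeq gene table (assembly Release 6 plus ISO1 MT). Among tested genes 38.4% lie on chromosome 2, 44% on chromosome 3, 16.7% on X and 0.529% on chromosome 4. All 12 genes in which Delta discs stood apart lie on chromosome 2. Of the 17 in which GFP discs stood apart, 13 lie on chromosome 3, 2 on chromosome 2, 1 on X and 1, Rnf11, on chromosome 4. Delta with COX7a RNAi discs stood apart in 4 genes on chromosome 2 and 1 on chromosome 3. These counts include genes that passed the filter only through the genotype where they were high, and such genes do not support a pattern. In the Delta class they are sNPF, AstC and Spn28B, all on arm 2L. In the class of Delta with COX7a RNAi discs they are CG31826 and CG9541 (2L) and Est-Q (3L), and in the GFP class CG32572 (X). At an adjusted p under 0.1, with 104 genes, Delta discs stood apart in 22, of which 16 lie on chromosome 2 and 5 on chromosome 3, and GFP discs in 26, of which 15 lie on chromosome 3 and 7 on chromosome 2. The classes were formed after the values were seen, so these counts carry no test. On which chromosomes the transgenes lie is not given in the sources used here.

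**Figure D4:**
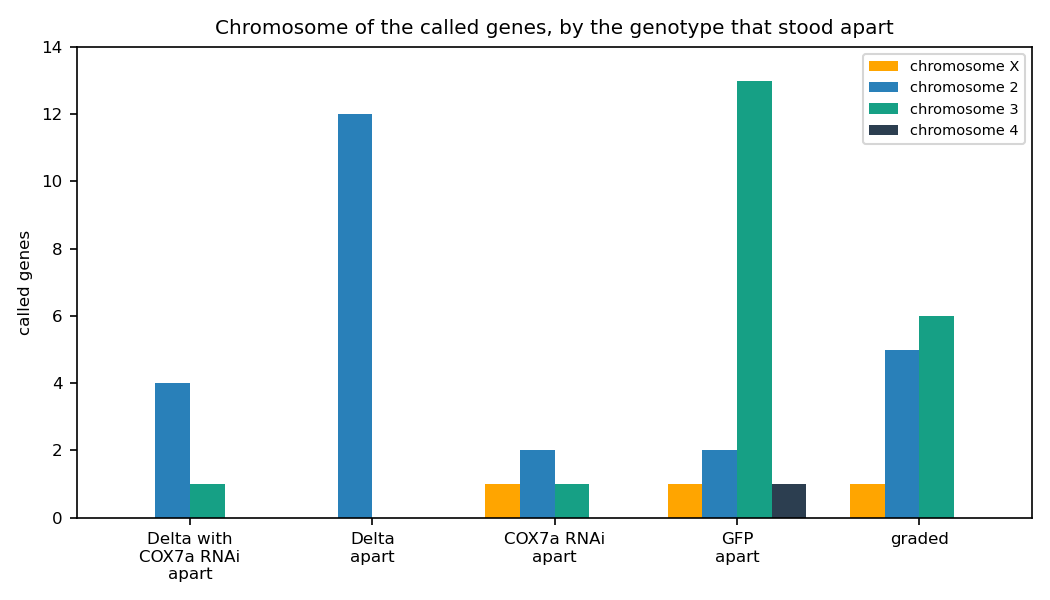
The number of genes called for the interaction (vertical axis) is shown per class, with bars for chromosomes X, 2, 3 and 4. The Delta class has 12 genes on chromosome 2 and none elsewhere, and the GFP class has 13 genes on chromosome 3. Genes that passed the filter only through the genotype where they were high are included.

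The called genes can also be placed by order along the chromosome. On arm 2R, GstE5, Pepck1, MFS15, ena and hts fell within 85 consecutive tested genes, and among the 4 genotypes of the factorial design each had its lowest mean in Delta discs. The median interaction of the 85 was 0.04. A second stretch of the same arm held CtsL2, Syngr, CG6701 and tej among 46 tested genes. On arm 3L, ImpE2, CG10863 and Akh lay among 42 and CG32373, RNaseX25 and tut among 44. In 3 pairs the called genes were separated by a single tested gene, otk with Mppe and CtsL2 with Syngr on 2R and spd-2 with CG4098 on 3L. The limit of 35 tested genes between neighbours was set after the positions were seen, and each stretch begins and ends at a called gene, so these counts are a description of position with no test.

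Among 36 lists of genes grouped by function, 5 held a gene called for the interaction. The neuropeptide list had 3 of 14 tested members lower (sNPF, Akh and AstC), against 0.31% of all tested genes, and its median was -0.19. Of these, sNPF and AstC passed the filter only through the Delta arrays, so the count does not support a pattern of the list. The other 4 lists had 1 each, path among 9 transporters, Pepck1 among 13 glycolysis and gluconeogenesis genes, ImpE2 among 14 ecdysone response genes and GstE5 among 32 glutathione S-transferases, and their medians lay between -0.09 and 0.03. The median over all tested genes was -0.01.

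**Figure D5:**
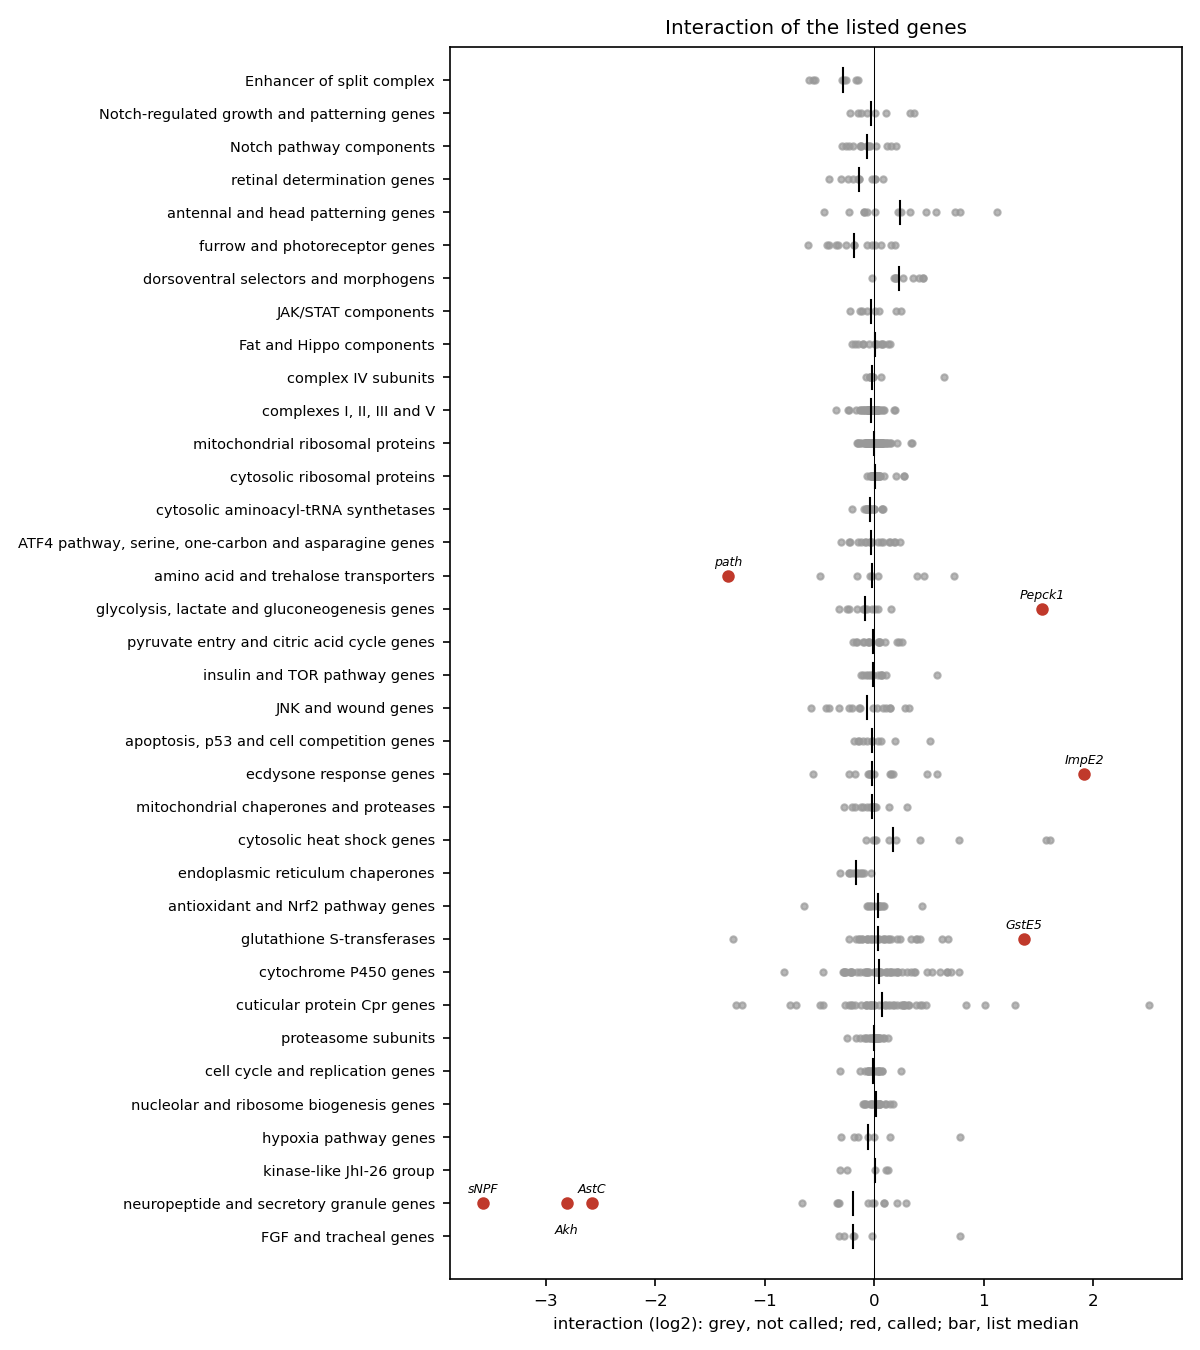
The interaction (horizontal axis, log2 units) is shown for each tested member of the 36 lists, grey where not called and red where called, with a bar at each list's median. Most medians lie near 0, and the Enhancer of split genes all lie left of 0, at -0.60 to -0.15.

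Direct targets of Notch did not give a call. Of the 8 tested Enhancer of split genes, none was called for the interaction and none had an unadjusted p under 0.05 in limma. All 8 values were negative, from -0.60 to -0.15 with a median of -0.29. Delta raised E(spl)m3-HLH by 0.48 in COX7a RNAi discs (adjusted p = 0.00922) and by 0.65 in GFP discs (adjusted p = 0.00094), and its interaction was -0.17 (interval -0.36 to 0.02). E(spl)m2-BFM was higher with Delta in GFP discs, by 1.00, and its difference of 0.71 in COX7a RNAi discs did not pass (adjusted p = 0.139). E(spl)m7-HLH had the largest departure, -0.60 with an interval of -1.53 to 0.34. The growth regulators eyg and dpn, named after their values were seen, rose with Delta in both backgrounds. eyg, a Pax gene of eye growth, rose by 0.96 in COX7a RNAi discs and by 0.95 in GFP discs, with an interaction of 0.00 (interval -0.26 to 0.27). dpn, a HES-family repressor gene, rose by 0.94 in COX7a RNAi discs and by 0.84 in GFP discs. These were 2 of the 8 tested genes of the list of growth and patterning genes under Notch control, against 0.391% and 1.34% of all tested genes higher with Delta. The components of the Notch pathway itself had no call in 15 (median -0.07), kuz, a protease gene that acts on Notch, being the farthest at -0.29 (adjusted p = 0.406).

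The eye and antenna patterning genes gave no call either. The median interaction was -0.14 over 11 retinal determination genes, -0.19 over 14 furrow and photoreceptor genes, 0.23 over 14 antennal and head genes and 0.23 over 10 dorsoventral selectors and morphogens. In the last list 9 of 10 values were positive. The farthest members were aos, which encodes an inhibitor of the EGF receptor (-0.61, adjusted p = 0.229), and Doc1, a T-box gene (0.45, adjusted p = 0.289). salm had 1.12 with an SE of 1.02, and its COX7a RNAi arrays were at 5.93 and 8.50, and gl had -0.41 with an SE of 0.80. JAK/STAT components had no call in 8, Ptp61F, a phosphatase gene, being farthest at 0.24, and Fat and Hippo components none in 14, the cadherin gene ds being farthest at -0.205.

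Among lists of the stress response to the hairpin, the synthetases, mitochondrial chaperones, ATF4 pathway and one-carbon genes and the JhI-26 group held no call for the interaction, while the transporter list held path, described above. Of 18 cytosolic aminoacyl-tRNA synthetase genes, 11 rose with COX7a RNAi in Delta discs (2.18% of all tested genes rose) and the same 11 rose in GFP discs (3.05%), with list medians of 0.34 and 0.32. Their interactions lay between -0.20 and 0.08. AsnRS, as an example chosen after its values were seen, rose by 0.59 in either background, with an interval of -0.20 to 0.20 for the difference. TrpRS was farthest, at -0.20 (adjusted p = 0.298). Of 16 mitochondrial chaperone and protease genes, 8 rose in Delta discs and 9 in GFP discs, 8 of them shared, and ClpP had the largest departure, 0.30 (adjusted p = 0.392). In the list of ATF4 pathway and one-carbon genes, 3 of 19 rose in Delta discs and 5 in GFP discs, and AsnS, the asparagine synthetase gene, rose by 1.01 in Delta discs and by 1.31 in GFP discs. In the group of kinase-like genes around JhI-26, 3 of 5 rose in each background, with medians of 2.96 in Delta discs and 3.10 in GFP discs. JhI-26 was at 8.95 and 8.17 in Delta with COX7a RNAi discs, 5.13 and 4.82 in Delta discs, 8.66 and 9.14 in COX7a RNAi discs, and 5.06 and 4.96 in GFP discs, an interaction of -0.31 ± 0.36.

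Metabolic and hormonal genes varied more from gene to gene. ImpL2, which encodes a secreted antagonist of insulin-like peptides, was at 12.66 and 12.52 in Delta with COX7a RNAi discs, 9.19 and 9.11 in Delta discs, 12.56 and 12.65 in COX7a RNAi discs, and 9.69 and 9.78 in GFP discs. Both genotypes with the hairpin reached the same level, and the interaction of 0.57 (interval 0.18 to 0.96) did not pass (adjusted p = 0.276). In the glycolysis list 4 of 13 genes rose in Delta discs and 6 in GFP discs, and apart from Pepck1 the interactions were between -0.32 and 0.15. Transporters rose in 4 of 9 in each background. Over all tested genes, 2.18% rose with the hairpin in Delta discs and 3.05% in GFP discs. The 32 glutathione S-transferases had 6 calls higher in Delta discs and 5 in GFP discs, with 5 shared. Their interactions ran from -1.29 (GstE14, adjusted p = 0.807) to that of GstE5, with 13 of 32 below 0 and a median of 0.03. bnl, which encodes an FGF that guides tracheal growth, was at 7.80 and 7.59 in Delta with COX7a RNAi discs, 6.71 and 6.83 in Delta discs, 8.64 and 8.92 in COX7a RNAi discs, and 8.63 and 8.64 in GFP discs. Delta lowered it by 1.08 in COX7a RNAi discs and by 1.86 in GFP discs, and the interaction of 0.78 did not pass (adjusted p = 0.152). Other bnl probe sets gave 0.19 and 0.38.

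Genes for respiratory complexes and ribosomes gave no call. Outside COX7A itself the 8 tested complex IV subunit genes had interactions between -0.07 and 0.06. The median was -0.03 over 53 genes of the other respiratory complexes, with ATPsynepsilonL farthest at -0.35 (adjusted p = 0.365). It was -0.00 over 69 mitochondrial and 0.00 over 39 cytosolic ribosomal protein genes, with mRpL48 (0.34, adjusted p = 0.242) and RpL22-like (0.27, adjusted p = 0.70) farthest. Endoplasmic reticulum chaperones had negative values in 12 of 12 genes, from -0.31 to -0.03, none called, with Cnx99A farthest (adjusted p = 0.384). The cytosolic heat shock gene Hsp68 had 1.61 with an SE of 0.97, its Delta with COX7a RNAi arrays lying at 8.39 and 7.47 and its GFP arrays at 8.27 and 7.41, and the cuticle gene Cpr11B had 2.50 with an SE of 1.05. Neither passed (adjusted p = 0.646 and 0.448). Cyp4e2, a cytochrome P450 gene, gave -0.83 (adjusted p = 0.217), Prx6c, a peroxiredoxin gene, -0.65 (adjusted p = 0.486) and egr, the TNF ligand gene of JNK signalling, -0.57 (adjusted p = 0.488).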

How the data were processed

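The deposited values were log2 expression values per probe set of an Affymetrix Drosophila array, made by the authors. Tools named in the submitters' processing notes, with no role given, are RMA, Transcriptome Analysis Console 3.0.0.466 and Expression Console. No build is given in the sources used here. Detection calls and scan dates were not used here, so batches were not tested. Of 18952 probe sets, 183 were controls, 13647 had 1 gene, 402 several and 4720 none. The annotation can be old, and 13544 gene IDs matched the Release 6 plus ISO1 MT gene table. The probe set with the highest mean stood for a gene. Genes above 4.66 (the 40th percentile) on at least 2 of 10 arrays were kept.

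With limma 3.58.1 in R 4.3.3, 1 mean per genotype was fitted over 10 arrays (5 residual degrees of freedom), with eBayes and a mean-variance trend, and p-values were adjusted by Benjamini-Hochberg over 8702 genes. After the fit, the contrast was also run on values simulated from its genotype means and spread. Errors are SE. The labels call the 2 arrays per genotype biological replicates, and their number limits the precision.

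Named genes were COX7A, Delta, the 15 highest and 15 lowest interactions among called genes, up to 3 called genes per list or else the member farthest from 0, and called genes by class. Genes named beyond this rule, among them E(spl)m3-HLH, E(spl)m2-BFM, eyg, dpn, AsnRS and GstE14, were chosen after their values were seen. Members and lists were chosen with earlier results of these data known. Alternatives were other filters, normalizations, variance models, probe sets, scales, a replicate block and each array left out. Replicate numbers were not taken to pair the samples.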

Additional observations from a re-analysis of the deposited data

Results flagged for a closer look

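The 30 genes below differed in their COX7a RNAi effect between Delta discs and GFP discs by the interaction test itself (limma, adjusted p under 0.05), and values are interactions in log2 units. Above the additive level, Delta with COX7a RNAi discs stood apart in spz4 (2.13), Est-Q (1.90) and CG31826 (1.56), and Delta discs, by a low level, in MFS15 (1.81). GFP discs, by a high level, stood apart in Rnf11 (7.15), ImpE2 (1.92), CG6293 (1.66), CG32572 (1.54), Jhbp5 (1.31), gkt (1.12) and CG6678 (1.12). Graded among genotypes were CG6701 (3.22), Pepck1 (1.53), alpha-Est10 (1.44) and GstE5 (1.36).

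Below the additive level, Delta discs stood apart, by a high level, in sNPF (-3.57), CtsL2 (-3.31), AstC (-2.58), Spn28B (-2.49), tej (-1.80), Syngr (-1.49) and CG7231 (-1.41). COX7a RNAi discs, by a high level, stood apart in Akh (-2.81), Inos (-1.37) and CG3857 (-1.06), and GFP discs, by a low level, in CG32373 (-2.17), tut (-1.48) and CG3253 (-1.23). The genes y (-1.35) and path (-1.34) were graded. Est-Q, CG31826, AstC and Spn28B were above the floor in 1 genotype only and entered the test through it. Outside the genotype where they were high, sNPF and CG32572 each had 1 array above the floor. They too entered the test only through that genotype, Delta discs for sNPF and GFP discs for CG32572.

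Probe sets that name no single gene entered no comparison above. Of 2301 such probe sets past the filter, 11 were called for the interaction, 5 higher and 6 lower.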

How the results depend on the processing

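The 50 interaction calls (23 higher, 27 lower) were 13 (7 and 6) with an ordinary linear model that does not share the spread between genes, and 104 (40 and 64) at an adjusted p under 0.1. Requiring an interaction of at least 1 in size left 33, of which 15 were lower. With 1 array left out the count was 16 to 42 (6 to 24 higher, 10 to 21 lower). The other filters, normalizations, variance models, array weights, probe-set means and the 8 arrays alone gave 41 to 62. On the linear scale all 50 kept their sign, but for 8 of them the additive expectation was at or under 0, which fixes the sign, and of the called genes named by rule whose ratio could be formed, 12 moved by more than the spread between replicates and 10 did not. COX7a RNAi in Delta discs called 217 genes from the 8 arrays alone, 126 with the ordinary model and 104 to 371 with 1 array left out. COX7a RNAi in GFP discs called 130 with that model and 127 to 443 with 1 array left out. Delta against GFP called 84 with that model, 433 with array weights and 74 to 245 with 1 array left out. Delta in COX7a RNAi discs called 4, 37 and 41 to 105 in the same fits. The COX7A interaction was 1.66 log2 units when additivity was taken on the linear scale and 0.47 to 0.79 with 1 array left out, and that of the Delta gene was -0.41 to 0.14. The cause of these changes was not tested.

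Deviations of same-numbered replicates correlated at -0.0792 to 0.376 over 6 pairs of genotypes, highest for the 2 hairpin genotypes and 0.124 for Delta with GFP. Not every pair was above 0.1, so the numbers were not taken to pair the samples, which does not show that they are unrelated. With the replicate block 35 genes were called (17 higher, 18 lower), 32 of them among the 50. The 18 lost were CG10863, CG1894, CG31798, CG31826, CG4098, CG6678, drl, ena, ImpE2, Inos, Lerp, Mppe, Mps1, otk, RNaseX25, Spn, Sulf1 and Syngr, with adjusted p up to 0.0742.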
